A study of Danio rerio with 28 samples.

Results

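The genes described here encode the digestive machinery of the lysosome: cathepsins and legumain (proteases), other hydrolases and their cofactors, lysosomal membrane proteins, and the subunits of the vacuolar proton pump (V-ATPase). They were taken by name from the count table, as every row whose symbol marks it as a cathepsin, a V-ATPase subunit or a LAMP protein, or is one of 13 further symbols such as PSAP, grna, LGMN and CD63. The rule found 56 Ensembl IDs of 32520, under 49 symbols. They comprised 19 cathepsin and legumain IDs, 9 IDs of other hydrolases and cofactors, 6 of membrane proteins, and 22 of the V-ATPase (13 in V1 and 9 in V0). The symbols gba, asah1a and asah1b of the rule matched no ID.

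Lysosomes are acidic organelles in which material taken up by the cell is broken down. The V-ATPase keeps them acidic: its V1 sector hydrolyses ATP in the cytosol, and its V0 sector carries protons through the membrane. Cathepsins are made as inactive precursors and work best at low pH, and microglia, the macrophages resident in the brain, rely on these enzymes to digest engulfed cells and debris.

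The study sorted 100 cells per library from the brains of adult zebrafish of genotype TgBAC(ccl34b.1:eGFP);Tg(mpeg1:DsRedx), in which a chemokine gene drives green and a macrophage gene drives red fluorescence. From each of 14 fish, both the ccl34b.1+mpeg1+ and the ccl34b.1-mpeg1+ gate were sequenced, 28 libraries in all, and the labels call the cells of both gates microglia. In a first experiment 5 fish aged 4 months had no treatment label. In a second, the fish were aged 6 months: 2 controls with no treatment label, 4 injected with PBS and 3 injected with E. coli.

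The 2 experiments differ in age and depth and were scaled separately, so levels set across them are approximate. Per library, 14.2 to 30.4 M counts (M, mega) were read in untreated fish and 2.24 to 9.69 M in the injection experiment. Levels are CPM (counts scaled to a common library total) and grow with transcript length, so they were compared between libraries and not between genes. Of the microglia marker list, 22 of 23 IDs had counts in untreated ccl34b.1+ libraries, with summed levels of 50148 to 63058 CPM. The list includes ccl34b.1 itself, whose reporter set the gates (means of 10043 and 396 CPM in ccl34b.1+ and ccl34b.1- libraries). Part of the difference in its sum therefore follows from the sort. In untreated ccl34b.1- libraries 20 of 23 had counts and the sum was 3574 to 6455 CPM, with the defining markers P2RY12 and apoeb at means of 0.0787 and 92.2 CPM, while the dendritic cell list summed to 3542 to 15065 CPM against 426 to 897 in ccl34b.1+ libraries. Other markers of the lists did not follow this: c1qa, c1qb, c1qc and MPEG1 (ENSDARG00000055290) had means of 251, 763, 353 and 898 CPM in ccl34b.1+ and 167, 618, 412 and 1174 CPM in ccl34b.1- libraries, and of the dendritic cell list ZBTB46 had 8.24 and 2.35 CPM and IRF8 481 and 456 CPM. In untreated fish the B cell list summed to 10 to 1810 CPM in ccl34b.1- and 0 to 3.11 CPM in ccl34b.1+ libraries. The T and NK cell list summed to 0 to 235 and 0 CPM in the same order. The sum of the endothelium list went the other way, at 0.0919 to 101 and 265 to 596 CPM, through 1 gene, pecam1a (means of 18.1 and 381 CPM). In the same order kdrl had 0 and 0, cdh5 0 and 0.0073, and flt1 21.8 and 0 CPM. The markers of the ccl34b.1- gate are thus mixed with respect to the label microglia, and its cells are called by their gate below. The gates hold cells with different marker levels in every treatment, and in bulk libraries fewer cells of a type and less RNA per cell cannot be told apart. The part of these marker differences in the lysosomal results was not tested.

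In untreated fish, 3 cathepsins, 2 hydrolase cofactors and 1 membrane protein were called higher in the ccl34b.1+ gate. Of the 40 IDs that passed the filter on low counts, 6 were higher and 0 lower (edgeR's quasi-likelihood test, adjusted p under 0.05), where 3.71% of all 8658 genes tested were called in either direction. The 6 were the proteases CTSB, CTSZ and CTSH, the cofactors PSAP and grna, and the membrane protein CD63. Of 13 cathepsin and legumain IDs tested, 11 had a positive log2 fold change, and the other 2, ctss2.1 (334 against 580 CPM) and CTSK (179 against 225 CPM), were not called. None of the 16 V-ATPase IDs tested was called by edgeR with all libraries, but ATP6V0B was called by DESeq2 (adjusted p = 0.0391) and by edgeR without ccl34b.1- library 2 (adjusted p = 0.0416). The median log2 fold change was 1.53 over 13 cathepsin and legumain IDs, 1.37 over 7 other hydrolases, 0.90 over 4 membrane proteins and 0.58 over 16 V-ATPase IDs, beside -0.01 over all genes with more than 3 counts in each gate. The libraries of the gates did not overlap, ccl34b.1+ higher, for 8 of the 40 IDs and for 5.16% of all genes.

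CTSB encodes cathepsin B, a cysteine protease of broad specificity. In untreated ccl34b.1+ libraries 1 to 5 it stood at 1384, 1348, 1755, 1165 and 1267 CPM, and in the ccl34b.1- libraries at 286, 319, 561, 603 and 391 CPM. Every ccl34b.1+ library was above every ccl34b.1- library, and the difference was 1.68 ± 0.27 on the log2 scale (SE; adjusted p = 0.00192).

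CTSZ encodes cathepsin Z, a carboxypeptidase that also occurs outside lysosomes. Its levels were 858, 925, 1177, 792 and 662 CPM in ccl34b.1+ and 23.3, 81.0, 62.0, 223 and 179 CPM in ccl34b.1- libraries of untreated fish. All libraries of one gate lay above those of the other, and the log2 fold change was 2.96 ± 0.50 (adjusted p = 0.00318). CTSH, an aminopeptidase, had means of 444 ± 171 and 153 ± 51.4 CPM (SD, n = 5 and 5; log2 fold change 1.53 ± 0.39, adjusted p = 0.04), again without overlap (267 to 684 against 64.7 to 189 CPM). The CTSH call was lost in 8 of the 10 fits that left out 1 library, with an adjusted p of up to 0.109, and with the replicate number, shared by the gates of a treatment, as a block (adjusted p = 0.106).

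PSAP encodes prosaposin, which is cut into the saposins that help enzymes reach sphingolipids. It stood at 4162, 5285, 4759, 4640 and 3484 CPM in ccl34b.1+ and at 1489, 2000, 1849, 1783 and 1488 CPM in ccl34b.1- libraries (log2 fold change 1.37 ± 0.18, adjusted p = 0.000394). Every ccl34b.1+ library was above every ccl34b.1- library. The granulin precursor gene grna, whose mammalian counterpart progranulin is processed in lysosomes, ranged over 1868 to 2716 CPM in ccl34b.1+ and 638 to 967 CPM in ccl34b.1- libraries (1.54 ± 0.21, adjusted p = 0.000518).

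CD63, a tetraspanin of late endosomes and lysosomes, ranged over 1284 to 1675 CPM in ccl34b.1+ and 454 to 1029 CPM in ccl34b.1- libraries of untreated fish. The log2 fold change was 1.12 ± 0.25 (adjusted p = 0.0194), and adjusted p = 0.0516 without ccl34b.1+ library 3. Legumain (LGMN), an asparaginyl endopeptidase that trims cathepsins, had 937 ± 266 and 516 ± 450 CPM (adjusted p = 0.643), with overlapping libraries. In the injection experiment the gates did not overlap for LGMN, with ccl34b.1+ higher, at 940 and 1087 against 104 and 354 CPM in controls (adjusted p = 0.292), 1141 to 3053 against 252 to 1136 CPM after PBS (adjusted p = 0.163) and 1009 to 1972 against 127 to 840 CPM after E. coli (adjusted p = 0.18). These differences missed the threshold in the fit without a block, and with 2 libraries a gate the lack of overlap in controls carries little weight. LGMN was called with the replicate number as a block (adjusted p = 0.00373, 0.00717 and 0.00441 in the same order), and without the filter in controls and after E. coli (adjusted p = 0.0228 and 0.0437).

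**Figure D1:**
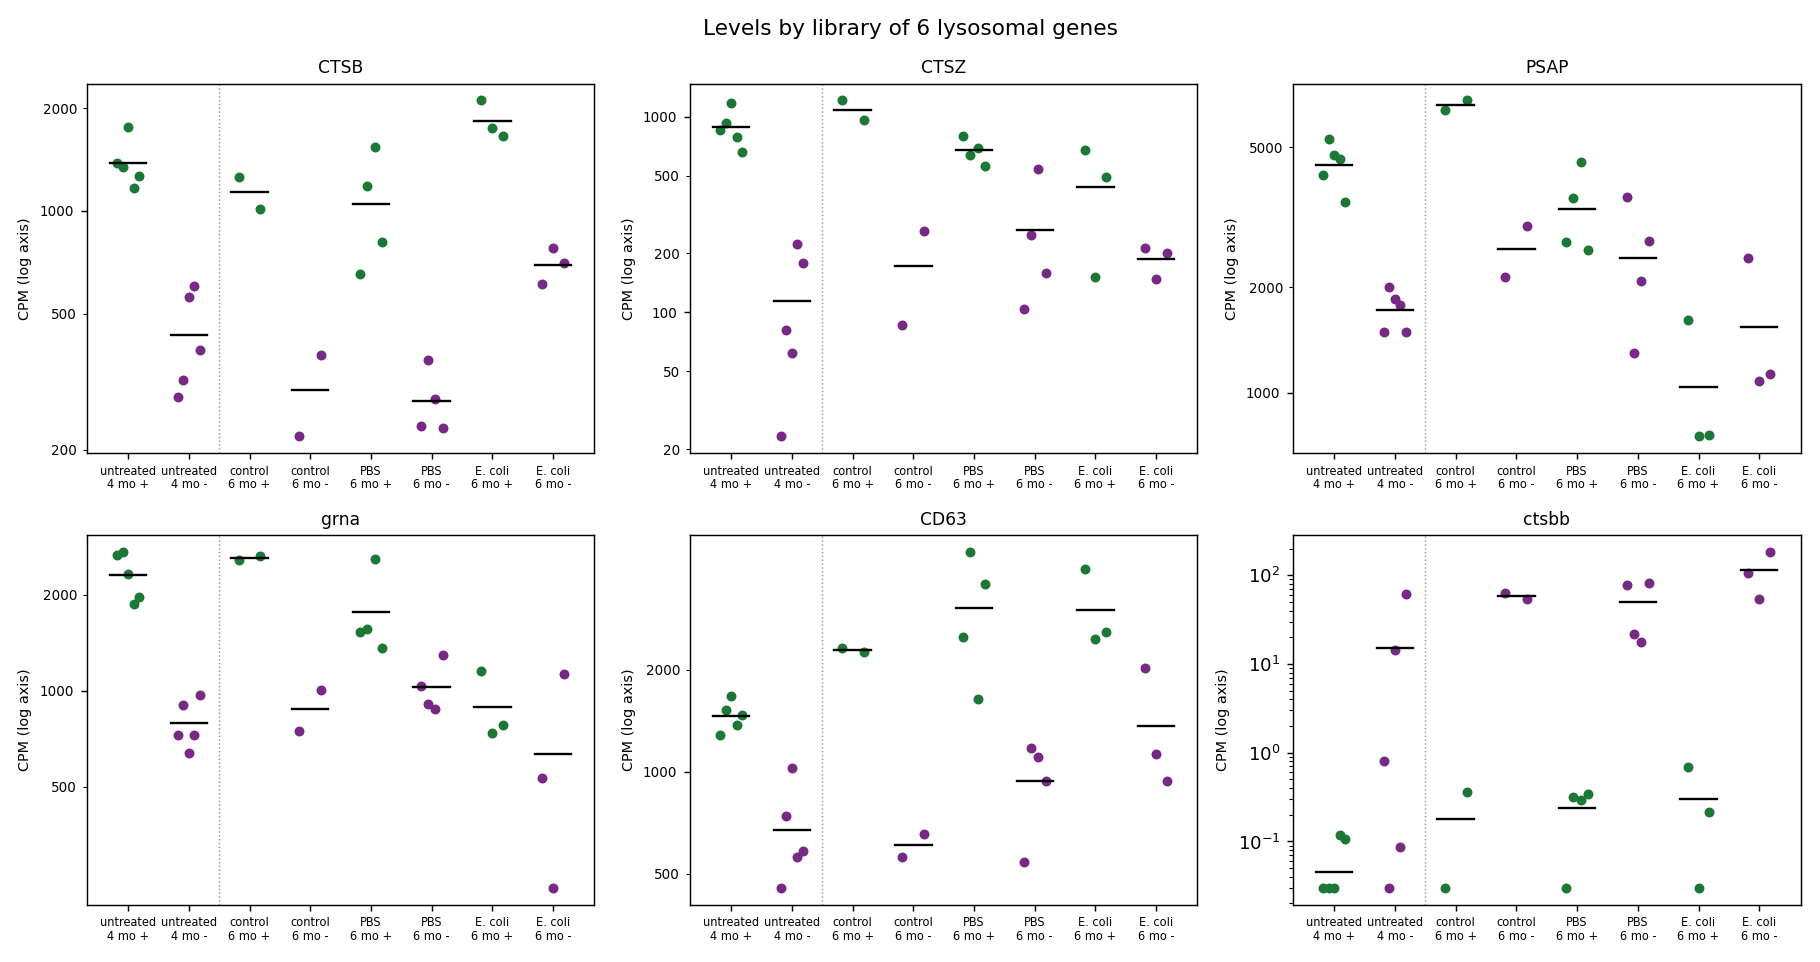
CPM (log axis) of 6 lysosomal genes in each library (points, ccl34b.1+ green, ccl34b.1- purple), with the group mean as a line, in 8 groups by treatment, age and gate. The dotted line separates the 2 experiments, which were scaled separately. Libraries with 0 counts of ctsbb are drawn at the bottom of its panel. CTSB and CD63 are higher in ccl34b.1+ than in ccl34b.1- libraries of all treatments, ctsbb is at 0.694 CPM or less in all ccl34b.1+ libraries, and PSAP is lower in ccl34b.1+ libraries after E. coli than after PBS.

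The injection experiment compared the gates again in other fish. In the control pair of groups, 2 of the 45 IDs tested were called, both higher in ccl34b.1+ cells, beside 0.869% of all genes tested. These were CTSB at 1259 and 1014 against 219 and 378 CPM (log2 fold change 1.93 ± 0.48, with an adjusted p of 0.0429) and CD63 at 2326 and 2260 against 561 and 655 CPM (1.92 ± 0.47, with an adjusted p of 0.0384). With 2 libraries a gate, both calls were lost whichever library was left out. CTSZ stood at 1212 and 964 against 86.1 and 260 CPM (adjusted p = 0.0682), and PSAP at 6409 and 6805 against 2135 and 2984 CPM (adjusted p = 0.314). The libraries of the gates did not overlap for either gene, but both missed the threshold. With 2 libraries a gate, lack of overlap is common by chance and carries little weight. With the replicate number as a block CTSZ was called (adjusted p = 0.0149) and CTSB was not (adjusted p = 0.0594).

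After PBS, 2 IDs were higher and 2 lower in ccl34b.1+ cells of 45 tested, beside 2.69% of all genes. Libraries did not overlap with ccl34b.1+ higher for 6 IDs, beside 5.1% of all genes. CTSB stood at 654, 1185, 1543 and 809 CPM in ccl34b.1+ and at 235, 365, 281 and 231 CPM in ccl34b.1- libraries (log2 fold change 1.91 ± 0.34, adjusted p = 0.000471). CD63 stood at 2504, 4451, 1638 and 3583 against 542, 1175, 1108 and 942 CPM (1.69 ± 0.33, adjusted p = 0.00155). For both genes the lowest ccl34b.1+ library was above the highest ccl34b.1- library, and both calls were made whichever library was left out. The other genes called in untreated fish were not called here. The gates overlapped for PSAP (2553 to 4548 against 1298 to 3618 CPM) and CTSH (133 to 286 against 142 to 215 CPM). They did not for CTSZ (560 to 801 against 104 to 539 CPM) and grna (1365 to 2581 against 875 to 1294 CPM), with ccl34b.1+ higher.

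The cathepsins lower in ccl34b.1+ cells were ctsbb and ctss2.1. The gene ctsbb, a second cathepsin B gene of the zebrafish, had 3 counts over all 4 ccl34b.1+ libraries after PBS, against 77.0, 21.9, 17.8 and 81.2 CPM in the ccl34b.1- libraries (adjusted p = 0.00282). The fitted log2 fold change was -7.63. From counts pooled over the libraries of a group, the ratio of the gates was 304, with a counting interval (95%) of 104 to 1478. That interval leaves out amplification and the spread between fish. The same gate held few counts of ctsbb elsewhere: 6 in 5 untreated libraries, 1 in 2 controls and 4 in 3 E. coli libraries. In ccl34b.1- cells of untreated fish ctsbb varied, at 0.817, 0, 14.4, 0.0863 and 60.8 CPM, and it did not pass the filter there.

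The ctss2.1 gene belongs to the cathepsin S family, whose mammalian member trims the invariant chain of MHC class II. It stood at 185, 110, 119 and 163 CPM in ccl34b.1+ and at 361, 437, 394 and 942 CPM in ccl34b.1- libraries after PBS (log2 fold change -1.89 ± 0.47, adjusted p = 0.0181). The gates did not overlap, and the call was lost without ccl34b.1+ library 2 or 3 or without ccl34b.1- library 4, the highest, with an adjusted p of up to 0.11. In untreated fish its means were 334 ± 80.9 and 580 ± 124 CPM (adjusted p = 0.204). Of the other cathepsin S genes, ctss1 had 0 counts in ccl34b.1+ and 52.3, 3.08, 14.2 and 47.4 CPM in ccl34b.1- libraries after PBS (adjusted p = 0.0638, by DESeq2 0.00118). Set against a floor of 3 counts over the group, the ratio of the gates was 177. The lower limit of its counting interval (95%) was 144, which leaves out amplification and the spread between fish. The third, ctss2.2, had 169 ± 50.3 and 275 ± 114 CPM after PBS and was called in no comparison.

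After E. coli, V-ATPase reads took a larger share of ccl34b.1+ libraries than after PBS. Summed over its 22 IDs, the V-ATPase took 7925 to 8969 CPM in the 3 ccl34b.1+ libraries after E. coli, against 1615 to 2631 CPM in the 4 after PBS and 1914 and 1949 CPM in the 2 controls. In ccl34b.1- cells the sums were 1719 to 2913 CPM after E. coli and 944 to 1519 CPM after PBS. The cathepsin sum of ccl34b.1+ cells overlapped between the injections, at 4862 to 7816 CPM after E. coli and 4264 to 6905 CPM after PBS. The sum of the other hydrolases in ccl34b.1+ cells was lower after E. coli, at 1816 to 3093 against 4360 to 7431 CPM. In ccl34b.1- cells this sum was 1540 to 3134 after E. coli and 2371 to 4969 CPM after PBS, with overlap. These sums were not tested, and each is dominated by its genes with the most reads.

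**Figure D2:**
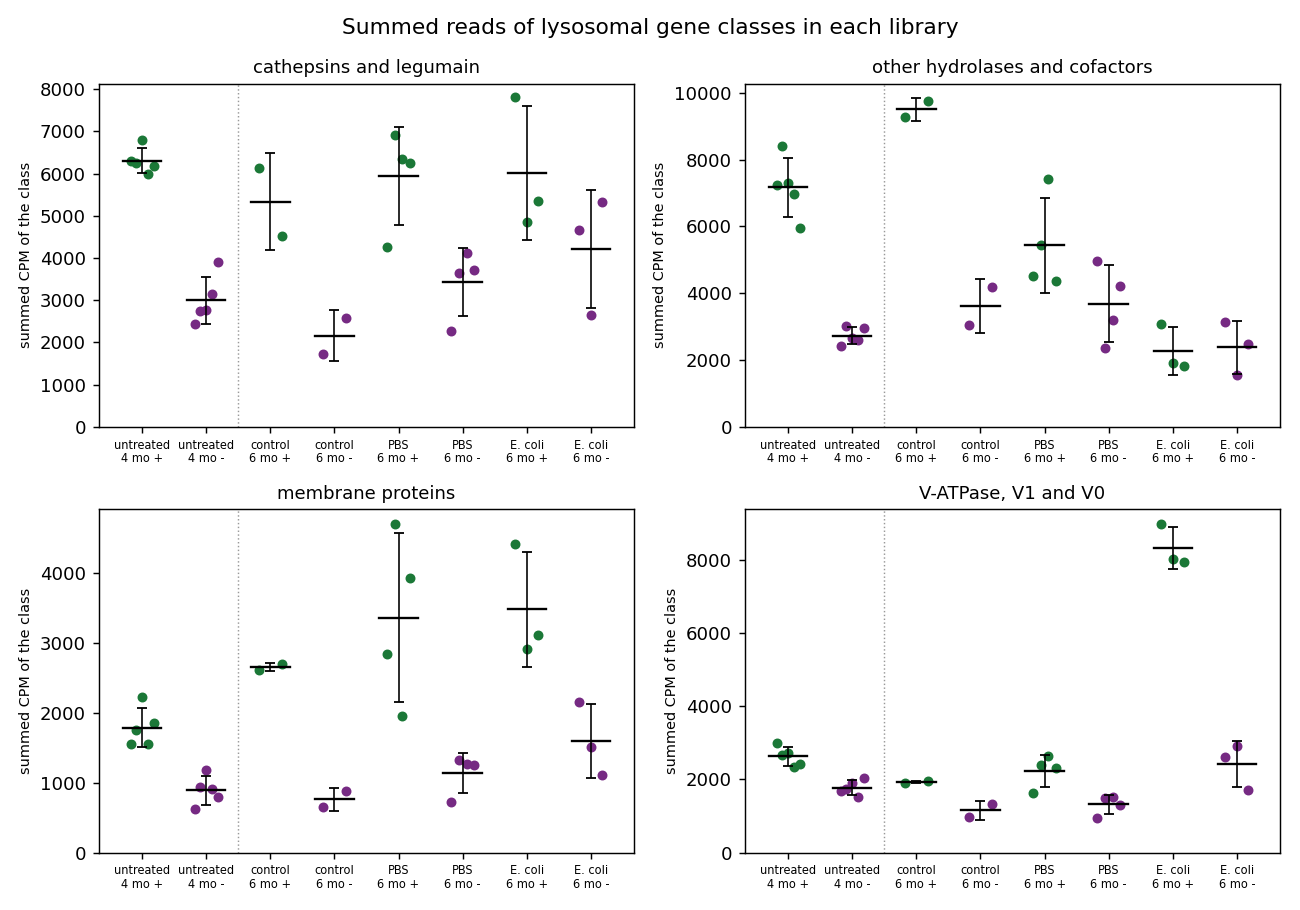
Summed CPM of 4 lysosomal gene classes in each library (points), with the group mean and SD, in 8 groups (+ for ccl34b.1+, - for ccl34b.1- cells). The dotted line separates the 2 experiments. The 3 ccl34b.1+ libraries after E. coli lie at 7925 CPM or more for the V-ATPase, above all other libraries, and at 3093 CPM or less for the other hydrolases. The ccl34b.1- libraries after E. coli lie at 1540 to 3134 CPM for the other hydrolases.

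By gene, 2 of the 45 IDs were higher and 1 lower in ccl34b.1+ cells after E. coli than after PBS, beside 1.51% of all genes tested. The 2 that rose are both proteolipid genes of the V0 sector, ATP6V0C (ENSDARG00000057853) and ATP6V0B, whose products form the ring that turns as protons cross the membrane. The 1 that fell was PSAP. Of the 18 V-ATPase IDs that passed the filter, 17 had a positive log2 fold change, with a median of 1.28 (0 over all genes with more than 3 counts in each group). For 14 of the 18, every E. coli library was above every PBS library, which held for 6.1% of all genes.

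ATP6V0C (ENSDARG00000057853) stood at 4188, 2926 and 2983 CPM in ccl34b.1+ cells after E. coli and at 252, 515, 896 and 535 CPM after PBS. The lowest E. coli library was above the highest PBS library, and the log2 fold change was 2.61 ± 0.39 (adjusted p = 8.16e-05). In ccl34b.1- cells the same gene stood at 1177, 1023 and 523 CPM after E. coli and at 202, 303, 317 and 211 CPM after PBS. It was the 1 of 45 IDs called in that gate, beside 0.403% of all genes (1.81 ± 0.38, adjusted p = 0.0181). The call in ccl34b.1- cells was lost without PBS library 1 or 4 or E. coli library 1 or 2, with an adjusted p of up to 0.101.

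ATP6V0B stood at 1021, 967 and 996 CPM in ccl34b.1+ cells after E. coli and at 199, 138, 232 and 323 CPM after PBS (log2 fold change 2.16 ± 0.46, adjusted p = 0.00731). The 3 E. coli libraries lay close together and above all other libraries of the series. In ccl34b.1- cells it stood at 85.6, 230 and 224 CPM after E. coli and at 72.2, 165, 115 and 151 CPM after PBS, with overlap (0.52 ± 0.46, adjusted p = 0.608). Both proteolipid calls in ccl34b.1+ cells were made whichever library was left out.

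**Figure D3:**
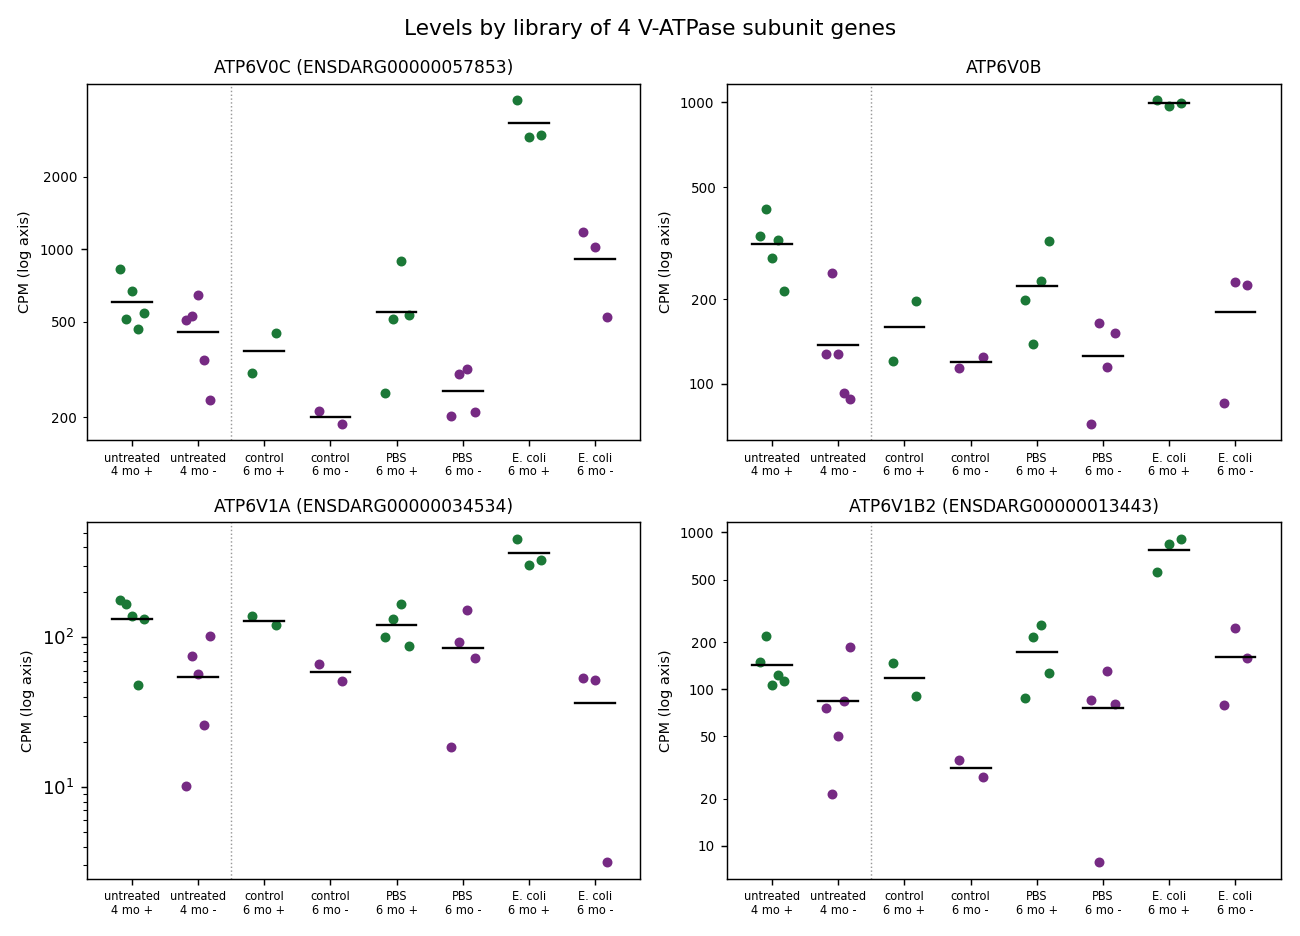
CPM (log axis) of 4 V-ATPase subunit genes in each library (points, ccl34b.1+ green, ccl34b.1- purple), with the group mean as a line, in 8 groups by treatment, age and gate. The dotted line separates the 2 experiments. The 3 ccl34b.1+ libraries after E. coli are the highest in all 4 panels.

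In the V1 sector all 11 IDs tested in ccl34b.1+ cells had a positive log2 fold change after E. coli, and edgeR called none. DESeq2 called ATP6V1B2 (ENSDARG00000013443, adjusted p = 0.0182), ATP6V1G1 (adjusted p = 0.0474) and, in V0, ATP6V0D1 (adjusted p = 0.0462). It also called several times more of all genes than edgeR in this comparison (counts in the section on processing). ATP6V1B2 (ENSDARG00000013443), the non-catalytic B subunit, stood at 557, 842 and 914 CPM after E. coli and at 88.1, 215, 257 and 127 CPM after PBS in ccl34b.1+ cells (log2 fold change 2.17 ± 0.61, adjusted p = 0.0697). ATP6V1A encodes the catalytic A subunit and is carried by a pair of IDs. ATP6V1A (ENSDARG00000034534) stood at 457, 305 and 328 against 101, 132, 166 and 87.8 CPM (1.58 ± 0.70, adjusted p = 0.289). ATP6V1A (ENSDARG00000076318) stood at 384, 306 and 328 against 41.8, 70.5, 36.9 and 53.2 CPM (2.75 ± 1.19, adjusted p = 0.287). In each case the E. coli libraries were the higher ones and did not overlap with PBS.

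In ccl34b.1+ cells, 6 further V1 IDs had E. coli libraries wholly above PBS: ATP6V1C1 (ENSDARG00000023967), ATP6V1D, ATP6V1F, ATP6V1G1, ATP6V1H and atp6v1e1b, with log2 fold changes of 0.85 to 1.47. The stalk subunit gene atp6v1e1b had 582 ± 104 against 288 ± 118 CPM (SD, n = 3 and 4; 1.02 ± 0.48, adjusted p = 0.305), and ATP6V1H, a regulatory subunit, 248 ± 86.1 against 138 ± 19 CPM (adjusted p = 0.463). The V1 IDs atp6v1e1a (1.14 ± 0.77) and ATP6V1C1 (ENSDARG00000035880, 0.85 ± 1.53) overlapped. In V0, ATP6V0D1, the subunit that links the ring to V1, had 295 ± 18.9 against 99.6 ± 30.9 CPM (1.57 ± 0.63, adjusted p = 0.269), and atp6v0e1 161 ± 76.2 against 66.5 ± 7.95 CPM (1.27 ± 0.73), both without overlap.

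The 1 negative log2 fold change of the 18 IDs belonged to ATP6V0A2 (ENSDARG00000035565), a gene of the proton-carrying a subunit. It had few reads, at 2.41 ± 3.47 CPM after E. coli and 3.96 ± 2.74 CPM after PBS. The a subunit ID with more reads, ATP6V0A1 (ENSDARG00000020847), also stood apart from this order. It had 59.5 ± 32.9 CPM after E. coli and 47.7 ± 32.7 CPM after PBS (log2 fold change 0.32 ± 1.23). Its interval is wide, and TCIRG1 (ENSDARG00000105142), another a subunit gene that the name rule does not take, was called higher in the same comparison, at 1363 ± 235 against 361 ± 77.4 CPM (1.92 ± 0.49, adjusted p = 0.0343). TCIRG1 was 1 of 18 tested IDs of a list of V-ATPase accessory genes, whose median was 1.21.

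**Figure D4:**
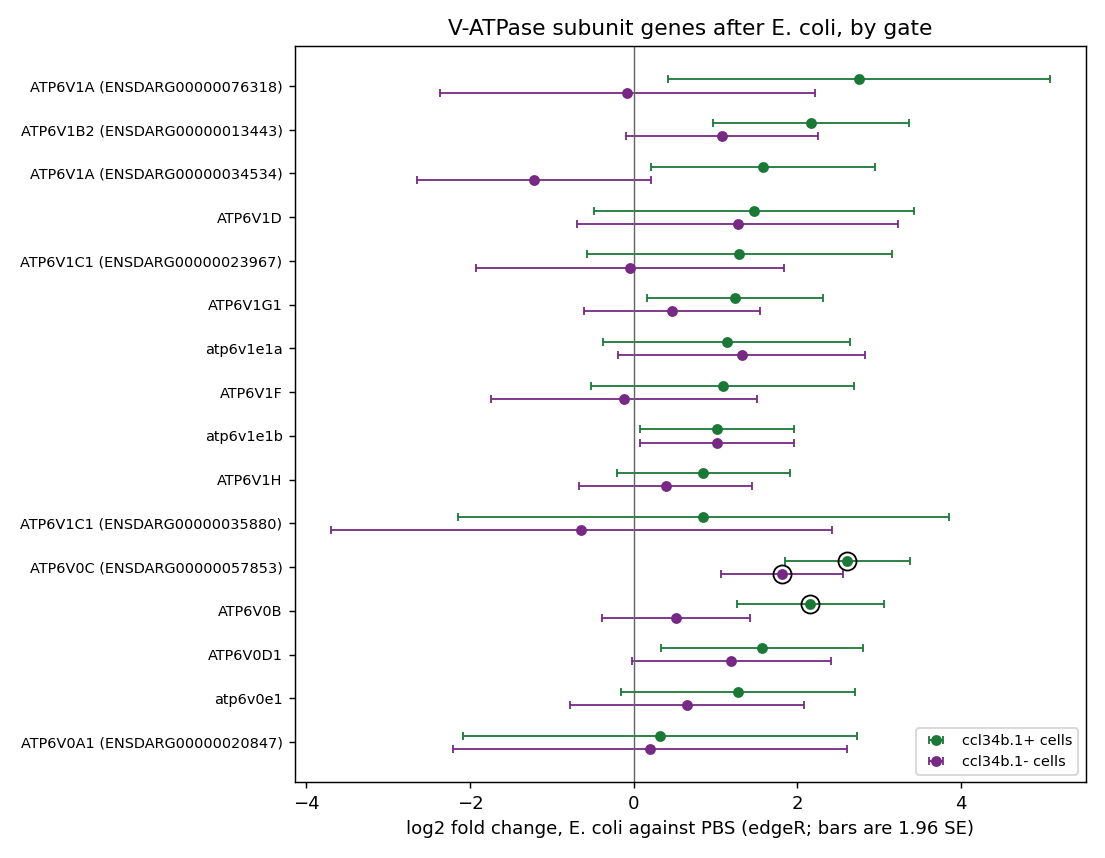
Log2 fold change of E. coli against PBS (points, with approximate 95% intervals from the SE) for 16 V-ATPase IDs with a mean of at least 10 CPM in at least 1 of the 4 groups, in ccl34b.1+ (green) and ccl34b.1- cells (purple). Circles mark adjusted p under 0.05. All 16 points of ccl34b.1+ cells are above 0, and the 3 circles are ATP6V0C in both gates and ATP6V0B in ccl34b.1+ cells.

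In ccl34b.1- cells, 11 of the 16 V-ATPase IDs with more than 3 counts in each group had a positive log2 fold change after E. coli, with a median of 0.49, beside 0.23 over all such genes. E. coli libraries lay wholly above PBS for 4 of 18, beside 3.34% of all genes. Whether the response to E. coli differed between the gates was tested as an interaction. No lysosomal ID passed (0 of 45, beside 0.274% of all genes), and DESeq2 called 0. An unadjusted p under 0.05 was reached by 4 of the 45 IDs and by 1734 of all 12421 genes tested. The interaction was 1.64 ± 0.65 for ATP6V0B (95% interval 0.36 to 2.92, adjusted p = 0.261), 2.79 ± 1.02 for ATP6V1A (ENSDARG00000034534; 0.80 to 4.79, adjusted p = 0.225) and 0.80 ± 0.54 for ATP6V0C (ENSDARG00000057853; -0.26 to 1.86, adjusted p = 0.556). A different response of the pump in the gates was therefore not shown by gene. Of the 16 V-ATPase IDs with more than 3 counts in each group, 15 had a positive interaction. Their median was 0.78, beside -0.3 over all such genes. This lean of the class was not tested, and its IDs were read in the same libraries.

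Within the E. coli fish, the gates differed by 4 IDs higher and 1 lower in ccl34b.1+ cells of 45, beside 2.31% of all genes tested. Of the 18 V-ATPase IDs, 14 had every ccl34b.1+ library above every ccl34b.1- library, which held for 8.12% of all genes. This comparison uses the same ccl34b.1+ E. coli libraries as the one against PBS. ATP6V0B had 995 ± 27.0 against 180 ± 81.8 CPM (2.47 ± 0.52 on the log2 scale, adjusted p = 0.00504) and ATP6V0C (ENSDARG00000057853) 3365 ± 713 against 908 ± 342 CPM (1.89 ± 0.42, adjusted p = 0.00852). ATP6V1A (ENSDARG00000034534) stood at 457, 305 and 328 against 53.9, 52.2 and 3.14 CPM (3.32 ± 0.82, adjusted p = 0.0204). For these 3 genes the gates did not overlap. The ATP6V0B call was made whichever library was left out. The ATP6V0C call was lost without ccl34b.1+ library 1 or ccl34b.1- library 3 (adjusted p of up to 0.0575), and the ATP6V1A call without ccl34b.1+ library 1 or 3 (adjusted p of up to 0.0803). With the replicate number as a block, ATP6V1A (ENSDARG00000076318) and ATP6V1B2 (ENSDARG00000013443) were called as well (adjusted p = 0.0446 and 0.0359). DESeq2 also called ATP6V1B2 (ENSDARG00000013443) and atp6v1e1b higher and GLA lower in ccl34b.1+ cells (adjusted p by DESeq2 0.0105, 0.0365 and 0.0021). GLA had 3 counts over the ccl34b.1+ libraries, against 126, 22.2 and 0 CPM. In this comparison DESeq2 called several times more of all genes than edgeR.

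CTSB was also higher in ccl34b.1+ cells after E. coli, at 2106, 1744 and 1656 against 609, 776 and 703 CPM (log2 fold change 1.40 ± 0.39, adjusted p = 0.0447), though the call was lost whichever library was left out and with the replicate number as a block (adjusted p = 0.0852). CTSB was thus called higher in all 4 comparisons of the gates without the block, and in those of untreated and PBS fish with it. The 1 ID that edgeR called lower in ccl34b.1+ cells was ctsbb, with 4 counts over 3 libraries against 107, 54.5 and 182 CPM (log2 fold change -8.43, adjusted p = 0.00734). The ratio from pooled counts was 437, with a counting interval of 171 to 1607. The call of ctsbb was lost without ccl34b.1+ library 3 (adjusted p = 0.053). CD63, called in the other 3 comparisons, stood at 3957, 2458 and 2592 against 2018, 1130 and 941 CPM here (1.14 ± 0.38, adjusted p = 0.119). PSAP, grna, CTSZ and CTSH, called in untreated fish, were not called after E. coli, and their gates overlapped. PSAP stood at 752 to 1612 against 1081 to 2417 CPM and grna at 735 to 1155 against 241 to 1128 CPM. CTSZ stood at 151 to 673 against 148 to 214 CPM and CTSH at 214 to 569 against 107 to 270 CPM.

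The E. coli libraries of the ccl34b.1- gate were uneven in other genes. MMP9, on the neutrophil list, stood at 0, 1190 and 2170 CPM in libraries 1 to 3, and the list's sum ranged over 0.406 to 2220 CPM there, against 0 to 2.37 after PBS, with the defining marker lyz at 0 in all 28 libraries. Without libraries 2 and 3, an alternative chosen after seeing the data, ATP6V0B and ctsbb were still called between the gates (adjusted p = 0.012 and 0.0214), and ATP6V0C, ATP6V1A and CTSB were not (adjusted p of 0.187 to 0.236). In that fit ATP6V0C was still called in ccl34b.1- cells after E. coli (2.14, adjusted p = 0.0199).

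PSAP fell in ccl34b.1+ cells after E. coli. It stood at 1612, 752 and 757 CPM, against 2680, 3591, 4548 and 2553 CPM after PBS (log2 fold change -1.68 ± 0.37, adjusted p = 0.00931). The groups did not overlap, and the call was lost without E. coli library 2 or 3, with an adjusted p of up to 0.125. In ccl34b.1- cells PSAP stood at 2417, 1081 and 1128 CPM after E. coli and at 3618, 1298, 2081 and 2708 CPM after PBS, and the groups overlapped.

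The other hydrolases of ccl34b.1+ cells had a median of -1.12 on the log2 scale after E. coli, over 6 IDs with more than 3 counts in each group, of which 5 were negative. E. coli libraries lay wholly below PBS for 3 of the 8 IDs tested (PSAP, grna and HEXA), beside 6.93% of all genes. The granulin gene grna had 890 ± 230 against 1760 ± 554 CPM (-0.98 ± 0.39, adjusted p = 0.261). HEXA, a hydrolase that acts on gangliosides, ranged over 0.246 to 13 against 16.5 to 66.3 CPM. GLA, alpha-galactosidase A, had 3 counts over the 3 libraries after E. coli in this gate, and LIPA, lysosomal acid lipase, had 49.9 ± 28.5 and 59.9 ± 50.2 CPM. In ccl34b.1- cells the class had a median of -0.65, with 5 of 7 IDs negative. Over all genes with more than 3 counts in each group the median there was 0.23. LIPA had 8.5 ± 10.6 after E. coli and 57.5 ± 27.4 CPM after PBS in ccl34b.1- cells (adjusted p = 0.247, by DESeq2 0.0353). Here too DESeq2 called many more of all genes than edgeR.

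Markers moved with these values. The microglia list summed to 13574 to 20998 CPM in ccl34b.1+ libraries after E. coli against 52170 to 76590 CPM after PBS, with 20 and 19 of 23 IDs detected. Within that list apoeb went from a mean of 32998 to 2221 CPM while MFAP4 (ENSDARG00000090783), a macrophage gene, went from 910 to 8060 CPM. P2RY12 was at 57.8 and 25.9 CPM, the dendritic cell list at 342 to 683 and 405 to 509 CPM, and the neutrophil list at 0.326 to 9.95 and 0.231 to 3.93 CPM, after PBS and E. coli in this order. The part of the fall of microglia markers in the V-ATPase and PSAP results was not tested.

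Against PBS, edgeR called no cathepsin after E. coli in either gate. DESeq2 called 2 in ccl34b.1- cells, CTSB (adjusted p = 0.0388) and ctss1 (adjusted p = 0.00872), the latter with 2 counts over 3 libraries after E. coli and 627 over 4 after PBS. In that comparison DESeq2 called many times more of all genes than edgeR (counts in the section on processing), so these calls are not particular to the members. CTSB had 1835 ± 239 against 1048 ± 398 CPM in ccl34b.1+ cells (0.81 ± 0.35 on the log2 scale, adjusted p = 0.285) and 696 ± 83.8 against 278 ± 62.2 CPM in ccl34b.1- cells (1.32 ± 0.35, adjusted p = 0.0902). In both gates the E. coli libraries lay wholly above PBS. CTSC, which activates serine proteases of granules, had 306 ± 110 against 95.2 ± 47.4 CPM (1.68 ± 0.53, adjusted p = 0.176), and ctsla, a cathepsin L gene, 298 ± 200 against 71.9 ± 57.4 CPM (2.05 ± 0.80, adjusted p = 0.235) in ccl34b.1- cells. LGMN had 1511 ± 483 after E. coli and 2172 ± 787 CPM after PBS in ccl34b.1+ cells, with overlap.

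PBS against control tested the injection itself. No gene of 12421 was called by edgeR in either gate (0% of all genes, and 0 of 45 lysosomal IDs). At an unadjusted p under 0.05 there were 628 genes in ccl34b.1+ and 642 in ccl34b.1- cells, with 2 lysosomal IDs in each, and DESeq2 called 82 and 127 genes, 0 of them lysosomal. PSAP stood at 3343 ± 927 CPM after PBS and 6607 ± 280 CPM in controls of the ccl34b.1+ gate (log2 fold change -0.98 ± 0.39, adjusted p = 0.965), without overlap. LGMN had 876 ± 417 and 229 ± 177 CPM in ccl34b.1- cells (1.93 ± 0.65, adjusted p = 0.943). With 2 control fish these comparisons are imprecise.

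**Figure D5:**
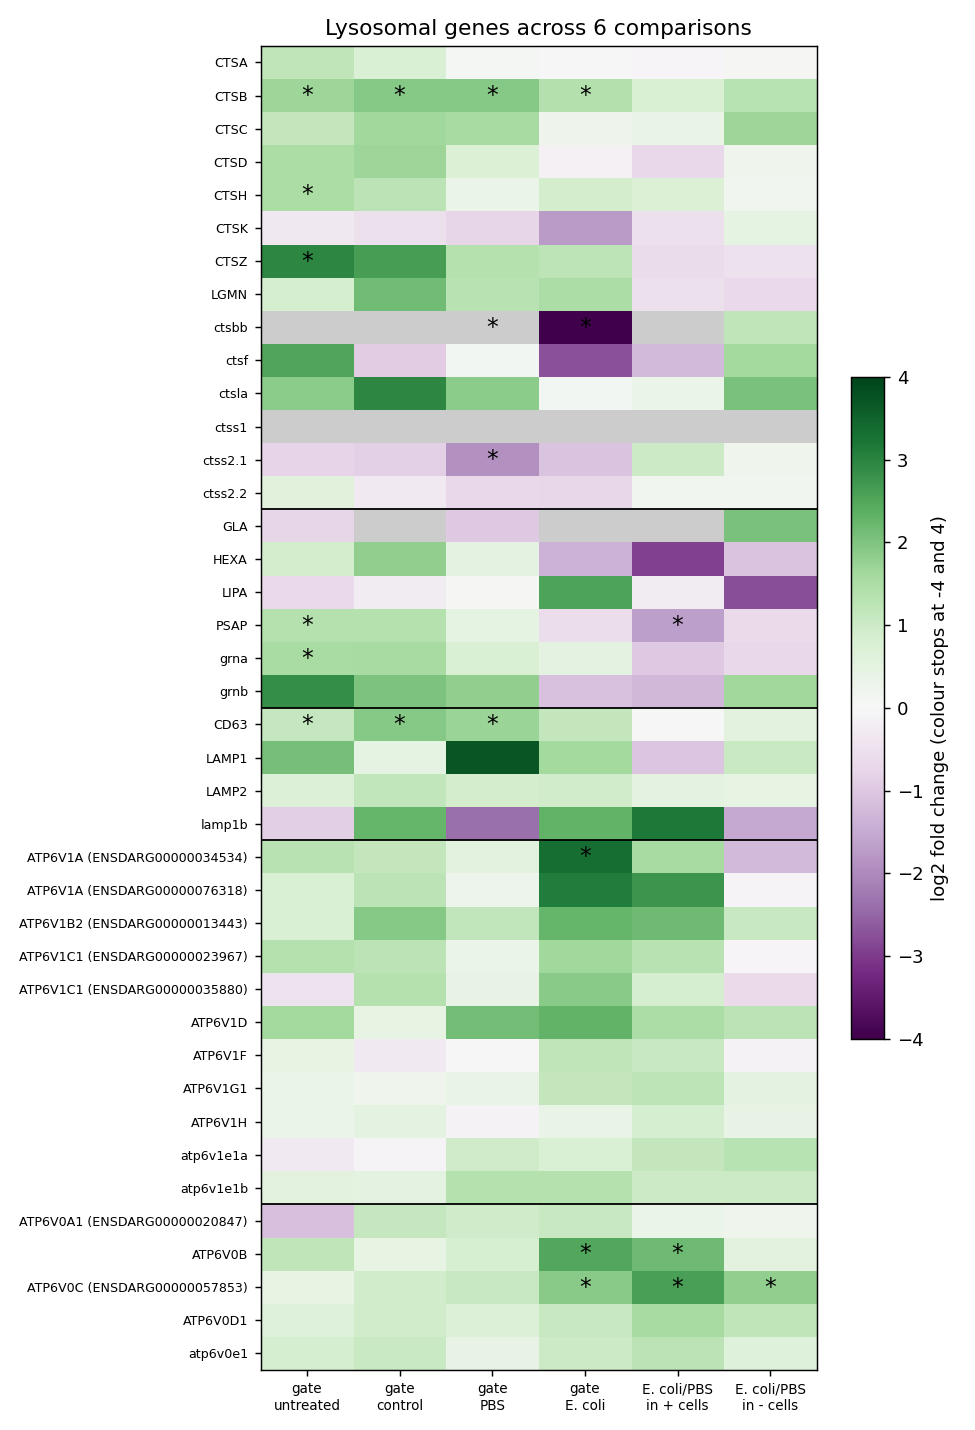
Log2 fold change of 40 lysosomal IDs with a mean of at least 10 CPM in at least 1 group, in 6 comparisons (columns: ccl34b.1+ against ccl34b.1- cells in each treatment, then E. coli against PBS in each gate). Green is higher in the ccl34b.1+ or E. coli group, colours stop at 4, stars mark adjusted p under 0.05, and grey marks IDs that did not pass the filter or had 3 counts or fewer in a group. CTSB carries a star in all 4 gate comparisons, and the V-ATPase block is green throughout its rows for the gates after E. coli.

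The remaining members varied without a call by edgeR. CTSD, the aspartic protease cathepsin D, had 248 ± 79.0 against 86.0 ± 78.0 CPM in the gates of untreated fish, and 594 ± 364 against 356 ± 222 CPM after PBS. CTSA, the protective protein of lysosomal glycosidases, had 392 ± 79.1 against 170 ± 115 CPM in untreated fish (adjusted p = 0.422). CTSK, a collagen-cleaving cathepsin, had 69.9 ± 44.2 against 234 ± 66.4 CPM after E. coli (adjusted p = 0.197), without overlap. LAMP2, a major glycoprotein of the lysosomal membrane, was higher in the mean of ccl34b.1+ than of ccl34b.1- cells in all 4 treatments, at 411 ± 52.1 against 217 ± 118 CPM after E. coli. Levels of ctsf, grnb, LAMP1 and lamp1b changed from library to library, with lamp1b at 0.463, 31.5 and 161 CPM in ccl34b.1+ libraries after E. coli.

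Some members were hardly read. ATP6V0A2 (ENSDARG00000035538), ATP6V1C2, ctslb.4, ctsll and LAMP5 had 0 counts in all 28 libraries. CTSO, ctsl.1, ctslb, lamp3, ATP6V0A1 (ENSDARG00000015174), ATP6V0A2 (ENSDARG00000035565), ATP6V0C (ENSDARG00000036577), ATP6V1B2 (ENSDARG00000043465), GAA (ENSDARG00000090714) and GAA (ENSDARG00000116493) had group means below 10 CPM throughout. Of ATP6V0C, ATP6V1B2 and ATP6V0A1, each carried by a pair of IDs, 1 ID of the pair therefore held nearly all counts, 190521 against 344 over the 28 libraries for ATP6V0C. How reads shared by such copies were counted is not given in the sources used here, so the split between paralogs is uncertain.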

How the data were processed

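The authors deposited raw read counts, whole numbers in 1 table of 32520 Ensembl IDs by 28 libraries, made from Smart-seq2 libraries of 100 sorted cells without molecular identifiers. Counting intervals and floors treat each read as an independent count. They therefore leave out the amplification of molecules as well as the spread between fish, and can be too narrow. Per the submitters' processing notes the tools were STAR, featureCounts and DESeq2 with GRCz11 (danRer11). Versions, strandedness and the counting of reads with several matches are not given in the sources used here. Per the labels, 3 technical replicates were sorted per gate and 1 was sequenced, and libraries of a group came from separate fish. Symbols came from a supplied table that names 29201 IDs (89.8%). A symbol carried by several IDs is printed with its ID.

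Counts were fitted with edgeR 4.0.16 (R 4.3.3): TMM scaling, filterByExpr, glmQLFit (robust) and glmQLFTest, two-sided, Benjamini-Hochberg adjustment over all genes tested. Adjusted p-values without a named tool are edgeR's. Untreated fish had a fit of their own, and the injection experiment (18 libraries) was fitted as 6 groups. CPM used the scaled library totals over genes that passed the filter, and values after ± are SD for CPM and SE for log2 fold changes. Medians over classes leave out genes with 3 counts or fewer in either group. Alternatives were DESeq2 1.42.0, its size factors, no filter, all 28 libraries in 1 fit, the replicate number as a block and each library left out. DESeq2 called more of all genes than edgeR in every comparison, so its calls of members are to be read beside that larger share. By the series' design each fish gave both gates, and libraries of the gates share numbers, but no label states that a number is 1 fish. Deviations of same-numbered libraries correlated weakly (0 to 0.05 in 14 pairs). Even so, 12 of 14 were closest to their own number, more often than random numbering would give. The fit without the block was kept as the main one, and the blocked value is given where it changes a call. The fitting code was run on simulated data, with a pass condition only at a low set spread. This does not show how the fits perform at the spread of these data. Members, lists and alternatives were chosen with earlier results of these data known. Members called at least once and the 3 of each class with the most reads are given with values (1 member is not reported here), and further genes come from lists, at most 3 called per list and comparison.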

Additional observations from a re-analysis of the deposited data

Results flagged for a closer look

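In 3 of 24 sets of replicates examined, 1 library stood far from the others, and chance alone gives about 1 in 20. CTSH was at 64.7 CPM in untreated ccl34b.1- library 3, against 159 to 189 CPM in the other 4. The gene ctss2.1 was at 942 CPM in ccl34b.1- library 4 after PBS, against 361 to 437 CPM in the other 3, and its call between the gates was lost without that library. For ctsbb, ccl34b.1+ library 1 after PBS held 0 CPM, against 0.295 to 0.343 CPM in the other 3, a difference of single reads.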

How the results depend on the processing

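Of 21 calls of lysosomal genes, 10 were made in every fit that left out 1 library, 9 in every fit run, and none changed direction. With 1 library left out, 4 to 6 members (231 to 315 of all genes) were called between the gates of untreated fish, 0 (38 to 61) in controls, 3 to 5 (227 to 308) after PBS and 2 to 5 (162 to 351) after E. coli, and against PBS after E. coli 2 to 3 (101 to 162) in ccl34b.1+ and 0 to 1 (26 to 90) in ccl34b.1- cells, with 0 for the interaction (14 to 55) and for PBS against control (0 to 1). DESeq2 called 8 members between the gates after E. coli, and 6 and 4 for the bacteria against PBS in ccl34b.1+ and ccl34b.1- cells. Over all genes it called 584, 454, 1094 and 1589 between the gates (untreated, control, PBS, E. coli; edgeR 321, 108, 334 and 287), 974 and 1177 for E. coli against PBS (edgeR 188 and 50) and 595 for the interaction (edgeR 34). Without the filter edgeR called 175 genes in controls, 472 between the gates after E. coli, 284 and 178 for E. coli against PBS, 146 for the interaction and 21 and 13 for PBS against control. With all 28 libraries in the fit it called 782 genes in untreated fish, 50, 196 and 160 between the gates of control, PBS and E. coli fish, 125 and 18 for E. coli against PBS, and 11 for the interaction. With DESeq2 size factors 0 members were called in controls. The median over all genes tested, those with few counts included, moved from -0.11 to -0.23 (gates after PBS), -0.08 to -0.29 (E. coli against PBS, ccl34b.1- cells) and -0.18 to 0.02 (interaction). This gene set is wider than that of the medians in the Results, which leave out genes with 3 counts or fewer in a group. In the same order, cathepsins with a positive fold went from 9 to 7, 11 to 7 and 5 to 8 of 15. The V-ATPase kept 17 of 18 positive after E. coli in ccl34b.1+ cells, and 16 to 17 with 1 library left out. Without ccl34b.1- E. coli libraries 2 and 3, chosen after seeing the data, 3 members were called between the gates after E. coli, 2 in ccl34b.1- cells for the bacteria against PBS and 1 for the interaction; the remaining library was assumed to vary like the other groups. With the replicate number within a treatment as a block, 5, 3, 5 and 7 members were called between the gates (untreated, control, PBS, E. coli). Of all genes 187, 198, 448 and 393 were called, and 0 members for the interaction. For E. coli against PBS and PBS against control, equal numbers of different treatments shared a block, although they come from different fish. That block therefore does not pair libraries by fish. It called 3 and 1 members for E. coli against PBS (162 and 49 of all genes) and 0 for PBS against control. The blocks changed the calls of CTSH, CTSZ, CTSB, LGMN, ATP6V1A (ENSDARG00000076318) and ATP6V1B2 given above and no other call of a member. The causes of these changes were not tested. Fold changes of ctsbb, ctss1, GLA and GAA are limited by few or no counts in some groups.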

Other observations

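Related lysosomal genes outside the name rule were listed with earlier results of these data known. In untreated fish SCPEP1, a serine carboxypeptidase, was higher in ccl34b.1+ cells, at 716 ± 116 against 236 ± 120 CPM (SD, n = 5 and 5; log2 fold change 1.60 ± 0.36, adjusted p = 0.0221, 1 of 37 further hydrolases and cofactors tested). The tetraspanin gene tspan36 was higher in untreated fish (816 ± 103 against 239 ± 107 CPM, adjusted p = 0.00433) and after PBS (787 ± 199 against 204 ± 132 CPM, adjusted p = 0.011). CPVL, a carboxypeptidase, had 95.9 ± 27.6 against 1.42 ± 0.0709 CPM in controls (adjusted p = 0.00714). ABCA2, an endolysosomal lipid transporter, had 0 counts in ccl34b.1+ and 42.6 ± 23.7 CPM in ccl34b.1- cells after PBS (adjusted p = 0.00482).

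After E. coli, ccl34b.1+ cells held more cd68, a lysosomal glycoprotein of macrophages, than after PBS (1885 ± 274 against 327 ± 251 CPM, adjusted p = 0.00137). They held less ifi30a, a thiol reductase gene (99.9 ± 109 against 2088 ± 826 CPM, adjusted p = 0.00013), and less GM2A (ENSDARG00000088439), a cofactor of ganglioside breakdown (46.1 ± 9.20 against 280 ± 137 CPM, adjusted p = 0.00642). Of these, ifi30a also differed between the gates in its response (interaction -3.52 ± 0.76, adjusted p = 0.0447). Between the gates of E. coli fish, ATP6AP2, an accessory protein of the proton pump, had 1861 ± 116 against 627 ± 115 CPM (adjusted p = 0.0212), RNASEK (ENSDARG00000069461) 633 ± 241 against 149 ± 113 CPM (adjusted p = 0.0408), and ASAH1 (ENSDARG00000034817), acid ceramidase, 447 ± 167 against 66.2 ± 74.7 CPM (adjusted p = 0.0366). In the same comparison cd68 was higher (498 ± 269 CPM in ccl34b.1- cells, adjusted p = 0.0336), and ifi30a and GM2A were lower (880 ± 565 and 197 ± 189 CPM in ccl34b.1- cells, adjusted p = 0.00374 and 0.0357). No member of the lists of lysosomal regulators (22 to 24 tested, TFEB relatives among them), mannose 6-phosphate sorting (11 to 13) or cathepsin inhibitors (7 to 9) was called by edgeR in any of the 9 comparisons.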
